A study of Mus musculus with 6 samples.

Results

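The genes described here are the enzymes of glycolysis, the factors that sense and transmit low oxygen, and well-known target genes of that response. They were taken by name from a list of 50 symbols, all of which were present in the deposited table of 21269 genes. The list was chosen with earlier results of these data known, so comparing its shares with those of all genes describes it and does not test it. Because Aldoa is the name of 2 rows, the list covers 51 rows. Of these, 49 averaged 5 normalized counts or more over the 6 libraries and were tested. The exceptions were Car9, with 5, 2, and 5 normalized counts in LNA Control against 3, 2, and 2 in LNA Malat1, and the second Aldoa row, with values between 2 and 5.

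RNA was sequenced from HL-1 cells, a line derived from mouse atrial cardiomyocytes that keeps contractile properties in culture. The study compared 3 libraries of cells transfected with a control locked nucleic acid gapmer (LNA Control) and 3 of cells transfected with a gapmer against the long noncoding RNA Malat1 (LNA Malat1). A gapmer is a short modified DNA strand that brings RNase H to the RNA it pairs with. Both groups received 50 nM of LNA 24 hours after seeding and were collected 48 hours after transfection, in the same norepinephrine-supplemented medium, and the labels name no change of oxygen in either group. The control is given as ctrl2. The sources used here do not state how many Malat1 gapmers were used, or whether the libraries of a group came from separate cultures, so the p-values cover the spread between these libraries, which may be technical. HL-1 is a single cell line, and what it shows need not hold for cardiomyocytes of the heart.

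Glycolysis splits glucose into pyruvate in the cytosol. Pyruvate is then reduced to lactate and exported, or is carried into the mitochondria, where pyruvate dehydrogenase, which the PDK kinases inhibit, converts it to acetyl-CoA. Fatty acids are the main fuel of the adult heart, and the fetal heart relies more on glucose. When oxygen is plentiful, the prolyl hydroxylases encoded by Egln1, Egln2, and Egln3 mark the HIF alpha subunits for the ubiquitin ligase of VHL. When oxygen falls, HIF alpha escapes this mark, pairs with ARNT, and binds short DNA elements near glucose transporter, glycolytic, mitophagy, and angiogenic genes. HIF activity is set largely through the stability of the protein, which RNA sequencing does not measure.

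The values are whole numbers, made by the authors from read counts per gene with a scaling factor for each library, and are called normalized counts. They summed to between 4758777 and 4921406 per library. The reads recovered from the rounding steps lay between 4512255 and 5593297 per library. LNA Control replicates differed from each other by more than LNA Malat1 replicates did, with a chi-square per gene from 1.77 to 4.18 against 0.949 to 1.16, where sampling noise gives about 1. LNA Malat1 replicate 1 differed from replicates 2 and 3 by no more than sampling noise (1.01 and 0.949), while replicates 2 and 3 differed by more (1.16). The closest pair, replicates 1 and 3, was taken as 1 sample in each mean ± SD and each percentage of the control mean. This leaves n = 2 for LNA Malat1, and such an SD can be smaller than the spread of the 3 libraries. Unless another setting is named, the log2 fold changes, SEs, and adjusted p-values use all 3 LNA Malat1 libraries as separate samples. Malat1 itself stood at 5051, 5197, and 4369 normalized counts in LNA Control against 2833, 2792, and 2732 in LNA Malat1, and LNA Malat1 held 57.2% of the control mean (adjusted p = 7.5e-06 by limma). Of 12 markers of atrial cardiomyocytes, Nppa and Sln were not analysed here, 9 had a mean of at least 5, and Myh6 lay between 0 and 7. Their sums were 5309 to 5589 in LNA Control against 5030 to 5201 in LNA Malat1, and 0 were called, while at an adjusted p of 0.05 without the fold minimum Gata4 and Tbx5 were lower and Tnnt2 was higher. Among markers of other cell types, the fibroblast genes Col1a1 and Col3a1 were abundant, and the 4 fibroblast markers with values had summed values of 5304 to 5910 in LNA Control, against 4683 to 4816 in LNA Malat1. The 2 endothelial markers with values summed to at most 35, and the 4 smooth muscle markers to between 704 and 738 in LNA Control against 831 to 870 in LNA Malat1. Without the fold minimum, Col3a1 was lower (adjusted p = 0.0014 by limma). The smooth muscle genes Cnn1 and Smtn were higher (adjusted p = 0.0035 and 0.0044 by limma), and none of these genes was called. The 2 macrophage markers, Cd68 and Csf1r, had sums of 32 to 36 against 54 to 81. Both were called higher, but Cd68 lost the call without LNA Control replicate 2 (adjusted p = 0.079 by limma), without LNA Malat1 replicate 1, 2, or 3 (0.10, 0.067, and 0.055), and with LNA Malat1 replicates 1 and 3 merged (0.068), and Csf1r without LNA Malat1 replicate 1 or 2 (0.081 and 0.067). Under quantile normalization neither passed (adjusted p = 0.12 for Cd68 and 0.062 for Csf1r by limma). In bulk RNA, fewer cells of a kind and less RNA per cell cannot be told apart, and the part of such cells in the results was not tested.

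Most of the set was lower after Malat1 silencing. The test was limma on the log2(normalized count + 1) scale, adjusted by Benjamini-Hochberg over all 15650 genes tested. In what follows, a gene fell or rose where its adjusted p did not exceed 0.05, and it was called when the fold change was also at least 1.5. Of the 49 genes tested, 28 fell and 0 rose, against 14.0% lower and 14.3% higher among all genes tested. With the fold change minimum, 8 were called lower, where 2.92% of all genes were, and 0 were called higher, where 8.00% were. At an unadjusted p under 0.05 limma gave 1 gene of the set that was higher, Epas1, and limma's voom on recovered reads, which also called 0 higher, gave the same number. The log2 fold change (log2FC, LNA Malat1 against LNA Control) was below 0 in 48 of the 49, against 47.2% of all genes, and its median was -0.24 against 0.02 over all genes tested. All 3 LNA Malat1 libraries lay below all 3 LNA Control libraries in 35 genes, or 71.4% of those tested, against 20.8% of all genes, and above them in 1 gene, Epas1, against 20.5%.

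The log2 fold change of all genes varied with their level, since genes with low counts tended to be higher in LNA Malat1 and abundant genes slightly lower, from a median of 0.36 in the lowest of 5 equal classes of mean level to -0.05 in the highest. The set was therefore also set beside the 10490 genes that averaged 50 normalized counts or more. Their median log2 fold change was -0.03, and 19.7% of them fell, whereas 26 of the 45 genes of the set at that level fell. With the fold minimum, 6 of the 45 were called lower, against 3.33% of genes at that level. In 33 of these 45 genes the LNA Malat1 libraries lay below all LNA Control libraries, against 28.5% of genes at that level. Summed over the 18 rows from glucose entry to pyruvate, the normalized counts were 11867, 11509, and 10692 in LNA Control against 9273, 9339, and 9077 in LNA Malat1. The groups did not overlap, and LNA Control replicate 3 was the control nearest to LNA Malat1. The 28 that fell did not fall alike, and the following paragraphs take them by their place in the pathway.

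**Figure D1:**
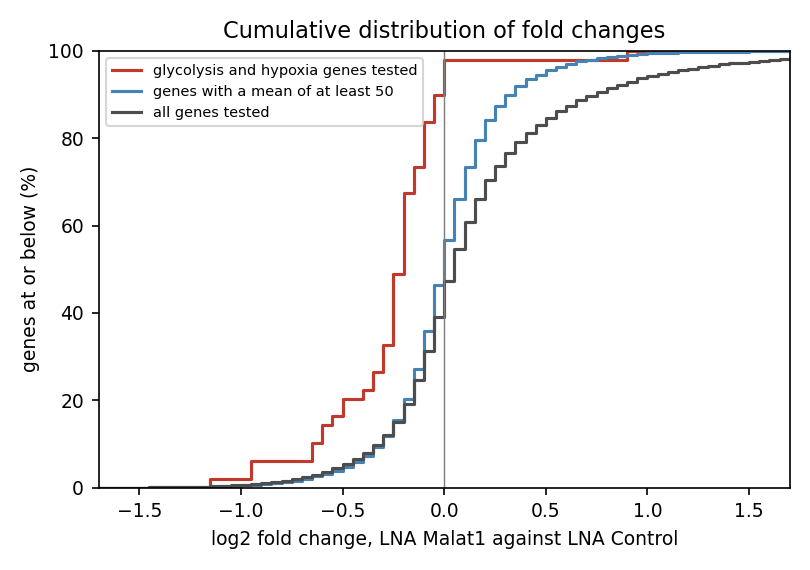
Cumulative distribution of the log2 fold change, LNA Malat1 against LNA Control, for the 49 glycolysis and hypoxia genes tested (red), the 10490 genes averaging 50 normalized counts or more (blue), and all 15650 genes tested (grey); the y axis gives the percentage of genes at or below each value. The red curve lies to the left of both others over most of its range, with a median of -0.24 against -0.03 and 0.02.

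**Figure D2:**
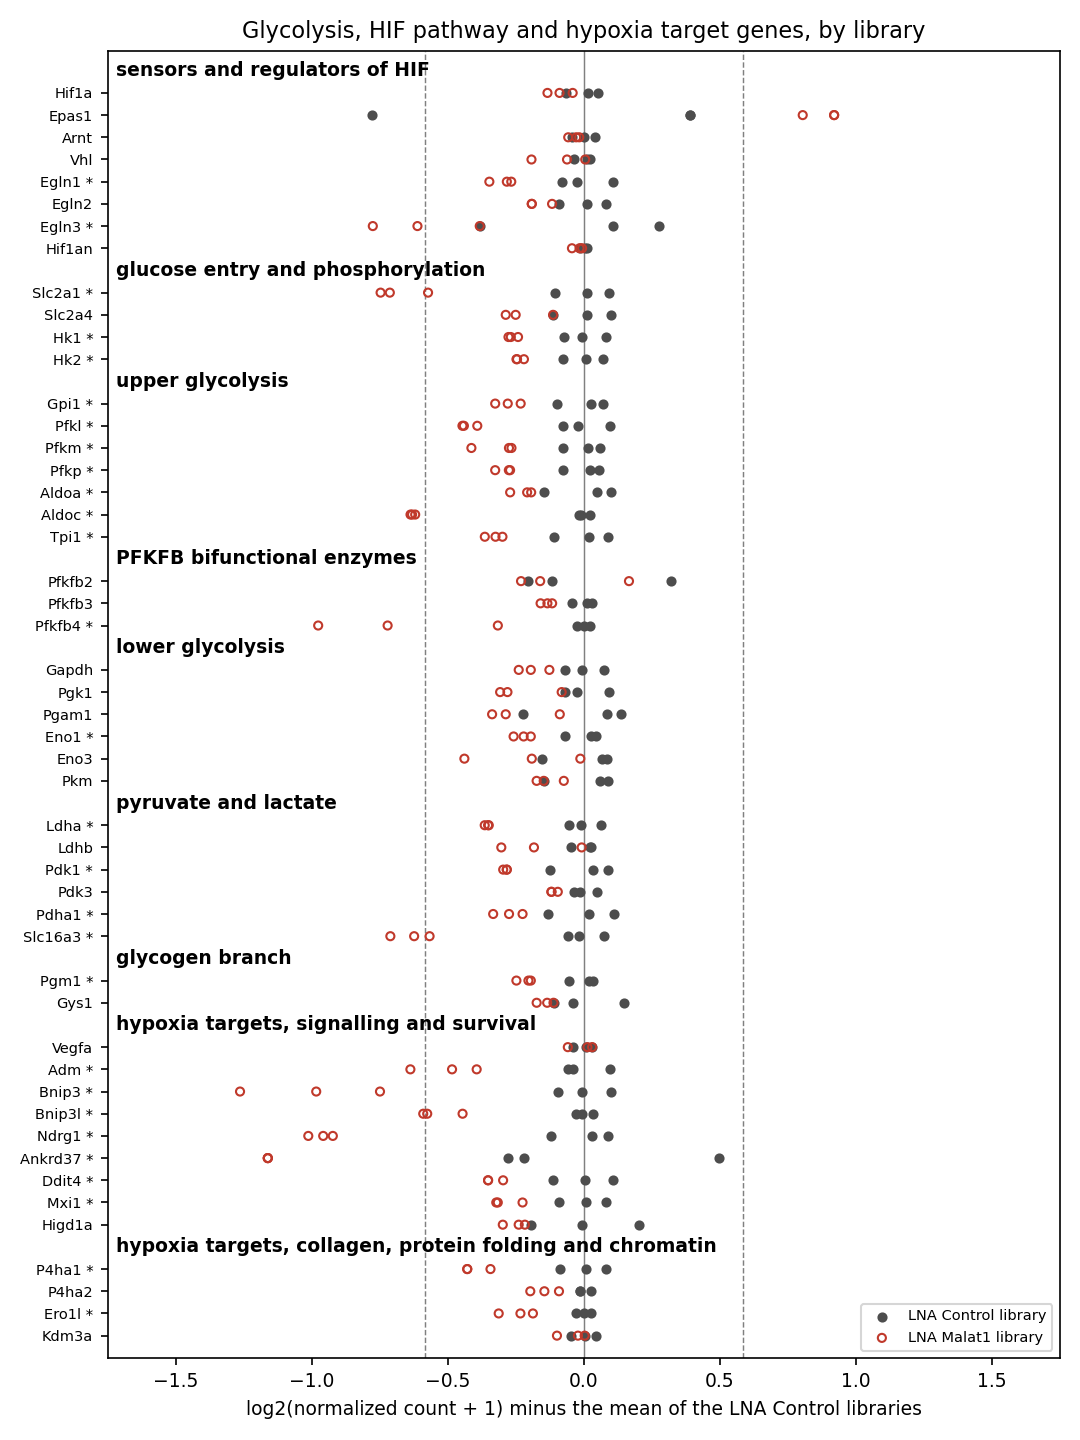
Each row is a gene and each point a library, as log2(normalized count + 1) minus the mean of the 3 LNA Control libraries; filled points are LNA Control and open points LNA Malat1, dashed lines mark a 1.5-fold change, and an asterisk marks the 28 genes that fell. Open points lie left of the filled ones in most rows, widest for Ankrd37, Bnip3, and Ndrg1. The groups overlap in 13 rows, those of Hif1a, Arnt, Vhl, Egln3, Hif1an, Slc2a4, Pfkfb2, Pgam1, Eno3, Pkm, Ldhb, Vegfa, and Kdm3a.

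HIF binds a short core of the letters ACGTG or GCGTG, and the promoters of some genes of the set are shown for that reason. The sequences are RefSeq promoter windows (GRCm38.p6, the assembly of mm10), which run from 250 bases before a gene start to 50 after it, and the 250 bases before the start are printed 5′ to 3′ on the strand of the gene. Capitals mark ACGTG or GCGTG on either strand, so the reverse strand reads CACGT or CACGC. The E-box CACGTG, which other factors bind, contains a match on both strands and is counted as 2. Bnip3, Ankrd37, Slc2a1, and Slc16a3 were called lower, Ldha fell by less than 1.5-fold and the 250 bases printed hold 5 matches, and Vegfa did not pass the test. These genes are a selection. Of the called genes not printed, Egln3 and Pfkfb4 held 1 match each in their windows. Aldoc has windows with 3 and with 1, and Ndrg1 has no window.
Bnip3, chr7:138909507-138909756, minus strand: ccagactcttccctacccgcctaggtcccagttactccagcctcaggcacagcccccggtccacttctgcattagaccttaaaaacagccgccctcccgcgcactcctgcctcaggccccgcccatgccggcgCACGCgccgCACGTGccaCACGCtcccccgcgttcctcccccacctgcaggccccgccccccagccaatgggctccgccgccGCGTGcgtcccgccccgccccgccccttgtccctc
Ankrd37, chr8:45999851-46000100, minus strand: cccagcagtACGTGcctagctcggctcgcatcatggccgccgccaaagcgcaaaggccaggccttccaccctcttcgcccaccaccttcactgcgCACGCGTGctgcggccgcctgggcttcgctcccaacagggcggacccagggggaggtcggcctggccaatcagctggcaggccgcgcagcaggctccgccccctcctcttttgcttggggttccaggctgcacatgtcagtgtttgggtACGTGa
Slc2a1, chr4:119108495-119108744, plus strand: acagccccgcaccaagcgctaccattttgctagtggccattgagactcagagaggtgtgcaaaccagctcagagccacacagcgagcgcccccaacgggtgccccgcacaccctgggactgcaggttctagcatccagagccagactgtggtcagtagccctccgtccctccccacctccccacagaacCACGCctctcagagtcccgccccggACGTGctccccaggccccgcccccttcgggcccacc
Slc16a3, chr11:120948817-120949066, plus strand: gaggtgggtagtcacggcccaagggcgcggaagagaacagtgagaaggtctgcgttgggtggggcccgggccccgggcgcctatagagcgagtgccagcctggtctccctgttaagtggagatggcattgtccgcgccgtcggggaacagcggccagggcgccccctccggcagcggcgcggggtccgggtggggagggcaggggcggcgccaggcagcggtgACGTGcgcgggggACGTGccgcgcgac
Ldha, chr7:46845554-46845803, plus strand: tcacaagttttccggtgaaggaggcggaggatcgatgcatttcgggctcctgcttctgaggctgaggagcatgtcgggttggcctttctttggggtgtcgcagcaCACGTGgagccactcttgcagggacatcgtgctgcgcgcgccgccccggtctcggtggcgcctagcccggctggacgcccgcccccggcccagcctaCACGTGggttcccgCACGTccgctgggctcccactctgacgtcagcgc
Vegfa, chr17:46032378-46032627, minus strand: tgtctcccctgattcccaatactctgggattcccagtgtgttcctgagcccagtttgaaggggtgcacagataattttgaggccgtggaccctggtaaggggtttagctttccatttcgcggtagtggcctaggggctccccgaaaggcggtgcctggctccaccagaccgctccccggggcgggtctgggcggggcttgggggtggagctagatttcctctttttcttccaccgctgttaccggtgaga

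Windows were given for 45 of the 50 symbols, with 66 windows in all, since a gene can have several starts. At least one window held a match in 40 of the 45 genes (88.9%), against 66.6% of the 10587 tested genes with a window and 46.7% of all 27025 genes with one. The 7 genes called lower that have a window all held a match, and so did 16 of the 18 that fell by less than 1.5-fold and 16 of the 19 that did not pass the test. A match was thus frequent in each of these classes, and whether its frequency differs between them was not tested. Vegfa has a second window, which held 2 matches, while the one printed held 0. Ldha also has a second window, with 2 matches, and the one printed in part held 7 over its whole length. The matches are letters in a window and not shown to be sites, and distal elements lie outside these windows.

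In the core of the oxygen-sensing pathway, 2 of 8 genes fell and 6 did not pass the test, and their median log2 fold change was -0.09. Hif1a had 1704, 1747, and 1610 normalized counts in LNA Control against 1585, 1639, and 1537 in LNA Malat1, so the groups overlapped (log2FC -0.09 ± 0.05 SE, adjusted p = 0.25 by limma). Its partner Arnt held 97.8% of control, and Hif1an, the asparagine hydroxylase FIH, 98.6% (adjusted p = 0.65 and 0.77 by limma), and both had a positive sign under quantile normalization and with library totals set equal. Vhl had 379, 376, and 363 against 326, 374, and 357 (log2FC -0.08 ± 0.06 SE, adjusted p = 0.35 by limma). Epas1, the gene of HIF-2 alpha, was the 1 gene of the set with a positive log2 fold change, but its normalized counts were low, at 8, 8, and 3 against 11, 12, and 12 (log2FC 0.88 ± 0.38 SE, adjusted p = 0.10 by limma). Per kilobase of exons, that is with normalized counts divided by exonic length, Hif1a made up between 99.2% and 99.8% of the sum of both alpha subunits. This length joins the exons of all annotated transcripts of a gene, so levels and shares compared between genes depend on the annotation.

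The prolyl hydroxylases Egln1 and Egln3, both known targets of HIF as well as its regulators, fell. Egln1, the main oxygen sensor, had 691, 630, and 606 normalized counts against 527, 533, and 504 (log2FC -0.30 ± 0.06 SE, adjusted p = 0.0026 by limma). Egln3 (chromosome 12, positions 54178981 to 54203860) was called lower with 152, 108, and 171 against 82, 108, and 92 (log2FC -0.59 ± 0.15 SE, adjusted p = 0.013 by limma). Its control libraries were far apart, LNA Control replicate 2 and LNA Malat1 replicate 2 had the same value, and the call rested on single libraries. The difference was under the fold minimum without LNA Control replicate 1 or 3 (log2 fold change -0.54 and -0.45), and its adjusted p was 0.077 and 0.059 without LNA Malat1 replicate 1 or 3 and 0.069 with these as 1 sample (limma). Egln2, which HIF does not induce, had 272, 241, and 259 against 237, 225, and 225 (log2FC -0.17 ± 0.07 SE, adjusted p = 0.085 by limma).

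The hypoxia targets of signalling and survival had the lowest median log2FC of the roles, -0.51. Of the 9 tested, 7 fell and 3 of these were called lower, against 14.0% and 2.92% of all genes tested. Ankrd37, an ankyrin repeat gene (chromosome 8, positions 45996902 to 46005707), was measured at 40, 24, and 23 normalized counts in LNA Control against 12, 12, and 12 in LNA Malat1. These are low counts, and LNA Control replicate 1 stood well above the other two, yet the groups did not overlap. The log2FC was -1.16 ± 0.26 (SE, adjusted p = 0.0055 by limma), and -0.91 without LNA Control replicate 1. Its exons overlap those of Lrp2bp and Ufsp2 on the other strand by 406 bases. Whether the counting used strand is not given in the sources used here, so reads of such overlaps cannot be assigned.

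Bnip3 and Bnip3l encode related proteins of the outer mitochondrial membrane that recruit the autophagy machinery to mitochondria. Bnip3 (chromosome 7, positions 138890836 to 138909519) had 143, 125, and 133 normalized counts in LNA Control against 55, 79, and 67 in LNA Malat1, a fall to 52.4% of control. Every LNA Malat1 library lay well under the lowest control, and the log2FC was -1.00 ± 0.13 (SE, adjusted p = 0.00013 by limma). Bnip3l fell too, but by less than 1.5-fold, from 433, 452, and 440 to 296, 324, and 293 (log2FC -0.54 ± 0.06 SE, adjusted p = 3.5e-05 by limma). Per kilobase of exons, the share of Bnip3 in the sum of both genes went from 34.0% ± 2.0 (SD, n = 3) to 27.7% ± 2.3 (SD, n = 2), and the libraries of the groups did not overlap. Of the stretches of 75 bases in their annotated transcripts, 11.4% for Bnip3 and 16.9% for Bnip3l also occur in other genes, mostly pseudogenes, and such reads were left out by the authors where they aligned to several places. Opposite-strand exons of Gm45507 overlap 504 bases of Bnip3.

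Ndrg1, whose product restrains growth and is a widely used marker of hypoxia, fell with little spread between libraries of a group. It lies on chromosome 15 (positions 66929318 to 66969640), and 556 of its exonic bases are overlapped on the other strand by Gm17035 and Gm2895. Its normalized counts were 332, 287, and 318 in LNA Control against 154, 160, and 164 in LNA Malat1, 312 ± 23.0 (SD, n = 3) against 160 ± 0.7 (SD, n = 2). The SD of 0.7 uses the mean of LNA Malat1 replicates 1 and 3 and does not show their spread, 154 to 164. The level was 51.1% of control (log2FC -0.96 ± 0.07 SE, adjusted p = 1.8e-06 by limma). Adm, the gene of the vasodilator peptide adrenomedullin, fell from 186, 207, and 188 to 147, 124, and 138, a log2FC of -0.51 ± 0.09 (SE, adjusted p = 0.00096 by limma). Ddit4, which encodes an inhibitor of mTORC1, held 79.6% of control (log2FC -0.33, adjusted p = 0.011 by limma), and Mxi1, which encodes an antagonist of MYC, held 81.3% (log2FC -0.29, adjusted p = 0.0058 by limma).

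Vegfa, the angiogenic growth factor, had the highest control level of these targets per kilobase of exons, 175 normalized counts, and did not pass the test. Its normalized counts were 764, 754, and 729 in LNA Control against 756, 719, and 765 in LNA Malat1, and the groups overlapped fully. The log2FC was -0.00 ± 0.05 (SE, adjusted p = 0.96 by limma), and its sign turned under quantile normalization, with library totals set equal, and without each of 3 libraries. Higd1a, which encodes a mitochondrial inner membrane protein, had 147, 129, and 170 normalized counts against 120, 127, and 125 (log2FC -0.25, adjusted p = 0.085 by limma), and it passed without LNA Control replicate 2 (adjusted p = 0.034). Among these targets, then, the values ran from 41.4% of control for Ankrd37 to 98.8% for Vegfa.

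Of the targets with roles in the collagen pathway, protein folding, and chromatin, 2 of 4 fell, against 14.0% of all genes tested. P4ha1, a collagen prolyl hydroxylase subunit and the most abundant of these per kilobase of exons, had 908, 955, and 850 normalized counts in LNA Control against 671, 712, and 671 in LNA Malat1 (log2FC -0.40 ± 0.06 SE, adjusted p = 0.00025 by limma). Its paralog P4ha2 had 415, 403, and 403 against 368, 382, and 355 (log2FC -0.14, adjusted p = 0.068 by limma). The share of P4ha1 per kilobase of exons went from 77.1% ± 1.0 (SD, n = 3) to 73.8% ± 0.1 (SD, n = 2), with no overlap of libraries. The LNA Malat1 libraries ran from 73.4% to 74.1%. Ero1l, the oxidase that makes disulfide bonds in the endoplasmic reticulum, fell to 85.3% of control (log2FC -0.24, adjusted p = 0.0052 by limma). Kdm3a, a histone H3 lysine 9 demethylase gene induced by hypoxia in many cells, overlapped at 792, 820, and 843 against 820, 764, and 806 (adjusted p = 0.62 by limma).

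**Figure D3:**
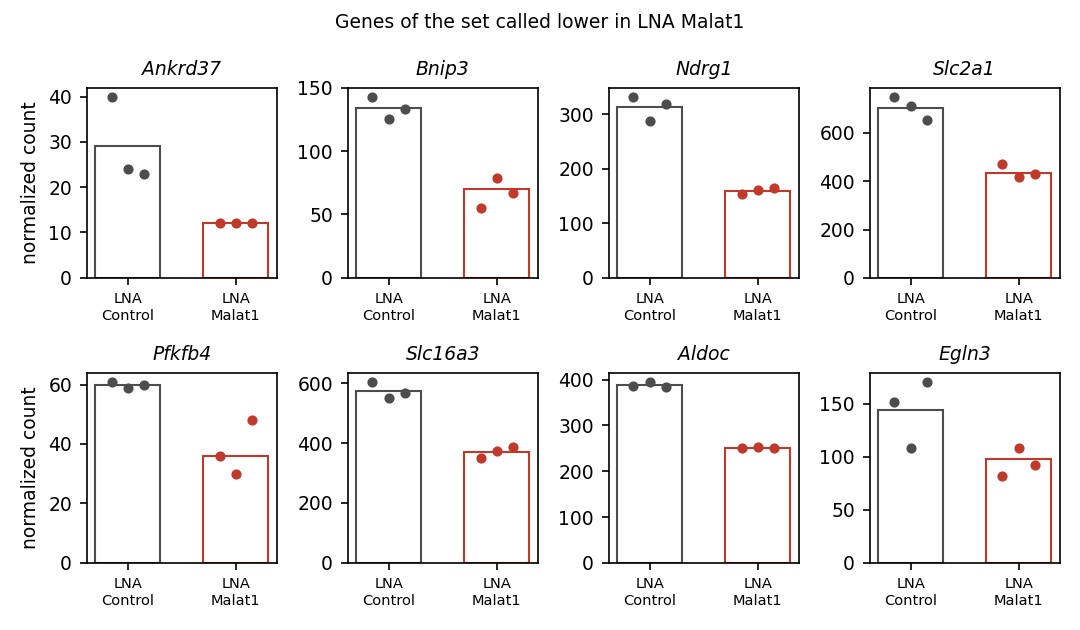
Normalized counts of the 8 genes called lower, one panel a gene and one point a library; bars are group means, with LNA Malat1 replicates 1 and 3 counted as 1 sample, and each y axis starts at 0. In 7 panels every LNA Malat1 point lies under every LNA Control point, and in Egln3 both groups have a library at 108.

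Of 4 transcripts for glucose entry and phosphorylation, 3 fell and 1 of these was called lower, against 14.0% and 2.92% of all genes tested. Slc2a1 encodes GLUT1, the transporter for basal glucose uptake (chromosome 4, positions 119108711 to 119137983). It had 751, 710, and 654 normalized counts in LNA Control against 473, 419, and 429 in LNA Malat1. All LNA Malat1 libraries lay far below the controls, at 61.7% of their mean (log2FC -0.68 ± 0.07 SE, adjusted p = 1.2e-05 by limma). Slc2a4, the insulin-responsive transporter GLUT4 of muscle and fat, was measured at a low level of 47, 43, and 50 against 39, 43, and 38 (log2FC -0.22 ± 0.15 SE, adjusted p = 0.31 by limma). Per kilobase of exons, the control level of Slc2a1 was 201 normalized counts and that of Slc2a4 13.4, and the share of Slc2a1 in their sum went from 93.7% ± 0.8 (SD, n = 3) to 91.3% ± 1.0 (SD, n = 2).

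The hexokinases trap glucose as glucose-6-phosphate, and both fell to a like degree. Hk1 had 1300, 1224, and 1169 normalized counts against 1021, 1040, and 1015 (log2FC -0.26 ± 0.05 SE, adjusted p = 0.0032 by limma), and Hk2, the isoform of muscle and tumours, held 84.6% of control (log2FC -0.24, adjusted p = 0.0054 by limma). Their shares of the sum per kilobase of exons overlapped between the groups, with Hk2 between 48.1% and 48.5% in LNA Control and between 48.2% and 49.1% in LNA Malat1.

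All 7 upper glycolysis genes tested fell, where 14.0% of all genes tested did and 19.7% of those averaging 50 or more. In all 7 the LNA Malat1 libraries lay below all LNA Control libraries, against 20.8% and 28.5%. Pfkp, the platelet-type phosphofructokinase subunit, had 2016, 1971, and 1842 normalized counts in LNA Control against 1609, 1604, and 1549 in LNA Malat1, or 81.9% of control (log2FC -0.29 ± 0.05 SE, adjusted p = 0.0018 by limma). Pfkl, the liver-type subunit, fell by a log2FC of -0.43 (adjusted p = 0.00014 by limma), and Pfkm, the muscle-type subunit, by -0.32 (adjusted p = 0.0019 by limma). Per kilobase of exons the shares of Pfkl and Pfkm overlapped between the groups and that of Pfkp was slightly larger in every LNA Malat1 library. In LNA Control the shares were 40.0% ± 0.5 for Pfkm, 34.0% ± 0.6 for Pfkp, and 26.1% ± 1.1 for Pfkl (SD, n = 3). In LNA Malat1 Pfkp took 35.0% ± 0.2 (SD, n = 2). Pfkp was divided by 13401 exonic bases and Pfkm by 3340. Before this division Pfkp had more normalized counts, 1943 against 569 as control means, so the order of these shares rests on the lengths. Gpi1, which converts glucose-6-phosphate to fructose-6-phosphate, held 83.0% of control, and Tpi1, the triosephosphate isomerase gene, 79.9% (adjusted p = 0.0032 and 0.0015 by limma).

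The aldolases differed from each other. Aldoc, the brain-type isoform (chromosome 11, positions 78322968 to 78327781), had 387, 396, and 385 normalized counts in LNA Control against 251, 253, and 250 in LNA Malat1. The libraries of each group lay within a few counts of each other, and the fall was called, with a log2FC of -0.63 ± 0.06 (SE, adjusted p = 6.2e-06 by limma). Quantile normalization put Aldoc under the fold minimum (log2FC -0.57). Aldoa, the muscle-type isoform, had the highest control level of upper glycolysis per kilobase of exons, 384 normalized counts, and fell from 1195, 1153, and 1009 to 966, 976, and 925 (log2FC -0.22 ± 0.06 SE, adjusted p = 0.021 by limma). It no longer passed without LNA Control replicate 2 (adjusted p = 0.092 by limma), without LNA Malat1 replicate 1, 2, or 3 (0.072, 0.057, and 0.10), or with replicates 1 and 3 of LNA Malat1 merged (0.084). The share of Aldoc per kilobase of exons went from 22.4%, 23.5%, and 25.4% in LNA Control to 18.8%, 18.8%, and 19.4% in LNA Malat1, and this share does not depend on the factor of a library.

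The bifunctional PFKFB enzymes make and break fructose-2,6-bisphosphate, the activator of phosphofructokinase. Pfkfb3, the most abundant per kilobase of exons, had 640, 648, and 615 normalized counts against 578, 585, and 568, which did not overlap but did not pass the test (log2FC -0.14 ± 0.05 SE, adjusted p = 0.060 by limma). Without LNA Control replicate 3 it passed (adjusted p = 0.034). Pfkfb4 (chromosome 9, positions 108991778 to 109032228) was called lower, from 61, 59, and 60 to 36, 30, and 48 (log2FC -0.67 ± 0.18 SE, adjusted p = 0.013 by limma). It was not called without LNA Malat1 replicate 1 (adjusted p = 0.055 by limma) or replicate 2 (adjusted p = 0.060 by limma). Pfkfb2, the heart-type isoform, overlapped between the groups (log2FC -0.07, adjusted p = 0.76 by limma), and its exons overlap those of Gm29427 on the same strand, as those of Pfkm and Pkm overlap Gm26513 and Gm49759.

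The 6 lower glycolysis genes all had a negative log2 fold change, from -0.24 to -0.13, but 1 of them, Eno1, passed the test. Eno1, the ubiquitous enolase, fell from 515, 522, and 482 to 423, 434, and 442 (log2FC -0.22 ± 0.05 SE, adjusted p = 0.0087 by limma). Pkm, the pyruvate kinase gene, had 1030, 1052, and 893 normalized counts in LNA Control against 893, 940, and 877 in LNA Malat1. Its counted level per kilobase of exons was the highest of the group, but shared sequence lowers the counts of several of these genes. LNA Control replicate 3 reached into the range of LNA Malat1, and Pkm passed the test without it (adjusted p = 0.0085 by limma), while with all libraries the adjusted p was 0.15 (limma). Gapdh had 187, 179, and 198 normalized counts against 159, 164, and 172, and Pgk1 139, 128, and 124 against 123, 105, and 107 (adjusted p = 0.081 and 0.10 by limma). Pgam1 and Eno3 overlapped between the groups, with log2FC of -0.24 and -0.21, and Pgam1 passed without LNA Control replicate 3 (adjusted p = 0.0385).

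The counts of lower glycolysis genes are uncertain because several share sequence with other genes. Of the 75-base stretches of their transcripts, 52.8% for Pgk1, 34.9% for Pgam1, 23.0% for Eno1, 22.6% for Gapdh, and 17.8% for Pkm also occur in transcripts of other genes. For Gapdh such stretches were found in 118 other genes. For Pkm the gene that holds the most of them is Gm49759, which overlaps its exons on the same strand by 767 bases. Reads that align to several regions or lie on several genes were left out of the counts, so such stretches do not add to these levels. Levels per kilobase are therefore hard to compare between these genes. The percentages cover all annotated transcripts of a gene, and the share in the transcripts in use was not measured. In upper glycolysis the highest such share was 8.1%, that of Pfkm.

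At the exit of the pathway, 4 of 6 genes fell, against 14.0% of all genes tested. Slc16a3 encodes MCT4, the lactate exporter of glycolytic cells (chromosome 11, positions 120948480 to 120960868). It had 606, 552, and 569 normalized counts in LNA Control against 351, 373, and 388 in LNA Malat1, and the fall to 64.5% of control was called (log2FC -0.63 ± 0.06 SE, adjusted p = 9.9e-06 by limma). Quantile normalization (log2FC -0.574) and regression on GC content and length (-0.579) each put Slc16a3 under the fold minimum. Ldha, which makes lactate from pyruvate, had 778, 739, and 717 against 583, 584, and 578 (log2FC -0.36 ± 0.05 SE, adjusted p = 0.00029 by limma). Ldhb, the heart-type subunit, had 302, 303, and 288 against 262, 296, and 241, which overlap (log2FC -0.16 ± 0.08 SE, adjusted p = 0.12 by limma), and it passed without LNA Malat1 replicate 2 (adjusted p = 0.039). The share of Ldha in the sum of both per kilobase of exons was 55.0%, 53.6%, and 54.1% in LNA Control against 51.3%, 48.3%, and 53.2% in LNA Malat1.

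Pdha1 encodes the alpha subunit of pyruvate dehydrogenase and had the highest level per kilobase of exons of the whole set in LNA Control, 426 normalized counts. It fell from 1609, 1713, and 1448 to 1311, 1357, and 1259 (log2FC -0.28 ± 0.06 SE, adjusted p = 0.0070 by limma), and its adjusted p was 0.053 without LNA Malat1 replicate 3. Pdk1, the kinase gene that HIF induces, fell to 81.6% of control (log2FC -0.29, adjusted p = 0.0036 by limma). Pdk3 had 590, 615, and 581 against 548, 557, and 548 and did not pass (log2FC -0.11, adjusted p = 0.12 by limma). In the glycogen branch, Pgm1, which joins glycogen to glycolysis, fell from 779, 770, and 732 to 664, 660, and 640 (log2FC -0.22 ± 0.05 SE, adjusted p = 0.0072 by limma), and Gys1, the muscle glycogen synthase gene, held 90.0% of control (adjusted p = 0.14 by limma).

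**Figure D4:**
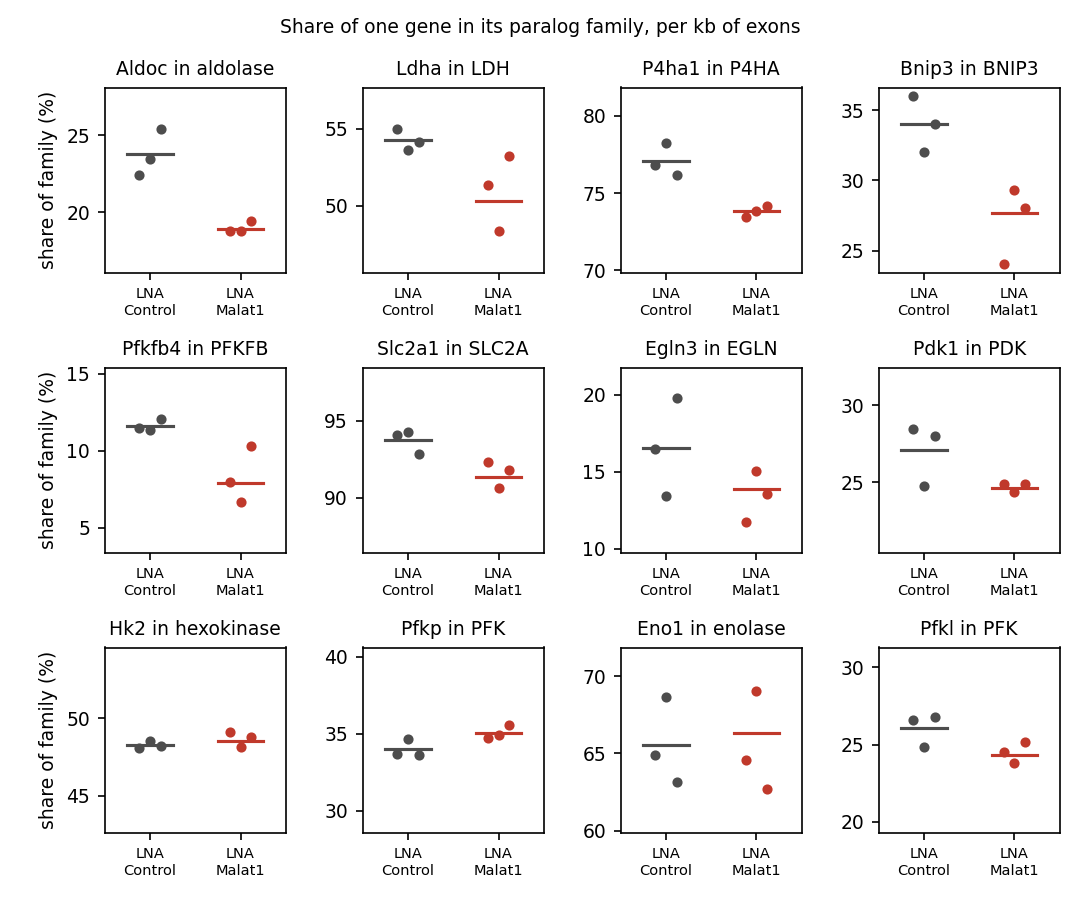
Share of one gene in the sum of its paralog family, in percent of normalized counts per kilobase of exons, for 12 genes; points are libraries, lines are group means with LNA Malat1 replicates 1 and 3 counted as 1 sample, and the y axes do not start at 0. Aldoc, Ldha, P4ha1, Bnip3, Pfkfb4, and Slc2a1 took a smaller share in every LNA Malat1 library, whereas Hk2, Pfkl, Eno1, Egln3, and Pdk1 overlapped.

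Genes of the same pathways outside the list were counted in the same way. Of 31 other glycolysis and pyruvate genes listed, 25 were tested, of which 2 fell and 2 rose (8.00% each, against 14.0% and 14.3% of all genes tested), with a median log2 fold change of -0.01. The mitochondrial glycerophosphate dehydrogenase gene Gpd2 fell to 70.5% of control and the lactate and pyruvate carrier gene Slc16a1 to 88.5% (adjusted p = 1.2e-05 and 0.026 by limma). Adpgk, an ADP-dependent glucokinase gene, rose from 304, 293, and 294 to 438, 412, and 413 (log2FC 0.50, adjusted p = 3.9e-05 by limma), and Hkdc1 was called higher at low counts of 4, 10, and 10 against 24, 14, and 17. Hkdc1 lost the call without LNA Control replicate 1 (adjusted p = 0.072 by limma), without LNA Malat1 replicate 1, 2, or 3 (0.15, 0.053, and 0.092), with LNA Malat1 replicates 1 and 3 merged (0.11), and under quantile normalization (0.13). The pyruvate dehydrogenase subunits Pdhb, Pdhx, Dlat, and Dld and the kinase genes Pdk2 and Pdk4 did not pass the test. Among 18 other glycogen genes tested, 8 fell (44.4%) and 2 rose, and the muscle glycogen phosphorylase gene Pygm was called higher, from 42, 38, and 45 to 77, 54, and 68, while Pygb, the brain isoform, fell to 80.8% of control. Pygm lost the call without LNA Malat1 replicate 1 (adjusted p = 0.064 by limma), and its log2FC was under the fold minimum without LNA Control replicate 2 (0.5835), with LNA Malat1 replicates 1 and 3 merged (0.5788), and under quantile normalization (0.51).

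Of 59 other HIF pathway and hypoxia target genes listed, 48 were tested, of which 12 fell and 6 rose, against 14.0% and 14.3% of all genes tested, with a median log2FC of -0.06. In each direction 3 were called (6.25%, against 2.92% lower and 8.00% higher of all genes tested). Ak4, a mitochondrial adenylate kinase gene that HIF induces, fell the most, from 122, 87, and 130 to 35, 39, and 34 (log2FC -1.60 ± 0.16 SE, adjusted p = 1.4e-05 by limma). Car12, a membrane carbonic anhydrase gene, fell from 572, 543, and 565 to 348, 326, and 345 (log2FC -0.72, adjusted p = 1.8e-06 by limma). In the other direction, Arnt2, a paralog of Arnt, rose from 22, 15, and 18 to 96, 119, and 133 (log2FC 2.60 ± 0.18 SE, adjusted p = 9.5e-07 by limma). The other genes called higher were Plod1, a lysyl hydroxylase gene, and Tgfb3 (log2 fold change 0.59 and 0.72), and Plod1 was under the fold minimum without LNA Control replicate 2 (0.52). The coactivator genes Ep300 and Crebbp and the VHL ligase genes Cul2, Elob, Eloc, and Rbx1 did not pass the test. With a replicate block, Ep300 was higher (adjusted p = 0.044 by limma). With regression on GC content and length, Ep300 and Crebbp were higher and Cul2 was lower (adjusted p = 0.00058, 0.0047, and 0.033 by limma).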

How the data were processed

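RNA from 6 HL-1 libraries was compared, 3 from LNA Control and 3 from LNA Malat1, grouped by the sample titles. By the methods and the submitters' processing notes, total RNA libraries (SMARTer Stranded Total RNA kit, single-end reads of 75 bases) were trimmed with Trimmomatic 0.39, aligned with STAR 2.7.7a to mm10 (Ensembl release 101), counted per gene with featureCounts 1.6.5, without multi-mapping or ambiguous reads, and analysed with DESeq2 1.30.0. The strand setting of the counting is not given in the sources used here. The deposited values, treated as a score, are counts that the authors scaled with a factor for each library and rounded; they are not raw counts. The factors were recovered from gaps and repeats left by rounding.

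Genes with a mean of at least 5 entered a two-sided moderated test (limma 3.58.1 under R 4.3.3, lmFit and eBayes with a mean-variance trend) of log2(normalized count + 1), and p-values were adjusted by Benjamini-Hochberg. The pseudocount of 1 understates changes of low genes. The methods' thresholds were kept (adjusted p of 0.05, 1.5-fold, mean of 5). With 3 libraries a group, exact permutation gives at best p = 0.1, and it was not used. The scripts were tested on simulated data. Exonic length, overlaps, and shared 75-base stretches come from GENCODE M21 (mm10), which lists 21224 of the 21269 identifiers. Paralog shares were given without a test.

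The members and lists were chosen with earlier results of these data known. Values per library are given for the called genes, the HIF alpha, VHL, and EGLN genes, and the gene with the highest mean in each role, and further genes of the set are given with the values that show their group. The values of 1 gene of the other lists are not reported here. Alternatives were pseudocounts of 0.1 and 5, a replicate block, 3 other scalings, a minimum mean of 50 or none, other fold minimums, each library left out, LNA Malat1 replicates 1 and 3 as 1 sample, limma's voom on recovered reads, and, chosen after seeing the data, regression on GC content and length.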

Additional observations from a re-analysis of the deposited data

How the results depend on the processing

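No gene of the set was called higher under any alternative run. The 8 genes called lower became 28 with no fold minimum and 1 (Ankrd37) with a minimum of 2-fold, and between 6 and 8 with each library left out, 6 of them (Aldoc, Ankrd37, Bnip3, Ndrg1, Slc16a3, and Slc2a1) in every such fit. Quantile normalization and a mean of at least 50 each gave 6, but not these same 6. Under quantile normalization Aldoc and Slc16a3 were under the fold minimum (-0.5718 and -0.5737), while Egln3 and Pfkfb4 stayed called. A mean of at least 50 left Ankrd37 and Pfkfb4 untested. The remaining alternatives gave 7 or 8, and Slc16a3 was under the fold minimum with regression on GC content and length (-0.5790). The count of those that fell lay between 25 and 31 over all alternatives. Over all genes tested, 1252 were called higher and 457 lower. Quantile normalization gave 748 and 718 (51.0% higher against 73.3%), a mean of at least 50 gave 317 higher (47.6%), LNA Malat1 replicates 1 and 3 as 1 sample gave 831 higher, no fold minimum gave 2231 and 2195, a minimum of 2-fold gave 742 and 99, and leaving out each library gave between 810 and 1582 higher and between 406 and 475 lower. The sign of the log2 fold change turned in 5 genes, none of which passed the test. With library totals set equal it was 0.032 for Vegfa, 0.00 for Arnt (0.0029), and 0.02 for Hif1an (0.0151). Under quantile normalization it was 0.058 for Vegfa, 0.02 for Arnt (0.0164), 0.02 for Kdm3a (0.0159), and 0.042 for Hif1an. With regression on GC content and length, chosen after seeing the data, it was 0.01 for Pfkfb2 (0.0082), 0.05 for Vegfa (0.0475), 0.07 for Arnt (0.0724), 0.05 for Kdm3a (0.0527), and 0.07 for Hif1an (0.0694). Leaving out 1 library gave between -0.195 and 0.0861 for Pfkfb2, above 0 without LNA Control replicate 1 or LNA Malat1 replicate 2 (0.0030), and between -0.0241 and 0.0222 for Vegfa, above 0 without LNA Control replicate 1 or 2 (0.0097 and 0.0002) or LNA Malat1 replicate 2. The cause of these shifts was not tested.

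The replicate numbers are not stated to mark a shared day. Libraries with the same number correlated at 0.086, 0.182, and 0.083 in their deviations from the group means over 10490 genes, and each of the 6 correlated best with its own number, a hint from the data and not from the design. With a replicate block, 8 genes of the set were called lower, the same 8, and 1297 and 442 genes in all were called higher and lower. At this depth, Car9 and the second Aldoa row were too low to test, and Ankrd37 and Epas1 rest on few reads.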

Other observations

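The table also assigns each gene to KEGG pathways and GO terms, and these lists, chosen after seeing the data, were counted without the 50 symbols of the set. They still hold some genes of the other lists above, such as Hkdc1, Arnt2, and Pygm. Of 26 other tested genes of KEGG glycolysis and gluconeogenesis, 3 fell (11.5%) and 2 rose, with a median log2 fold change of -0.03. Of 66 other tested genes of the KEGG HIF-1 signaling pathway, 16 fell (24.2%) and 7 rose, against 14.0% and 14.3% of all genes tested, with a median log2 fold change of -0.04. With the fold minimum, 4 were called lower (6.06%) and 5 higher (7.58%), against 2.92% and 8.00% of all genes tested. Among those called higher was Egf, from 42, 41, and 40 to 81, 80, and 87 (log2FC 0.99, adjusted p = 0.00010 by limma). The falls included Igf1r, the receptor of insulin-like growth factor 1, with 1907, 1575, and 1526 normalized counts in LNA Control against 1031, 995, and 1109 in LNA Malat1 (log2FC -0.67, adjusted p = 5.7e-05 by limma), and Plcg1, a phospholipase C gene, from 1014, 933, and 864 to 564, 590, and 570 (log2FC -0.70, adjusted p = 6.0e-06 by limma). Of 112 other tested genes of the GO term response to hypoxia, 19 fell (17.0%) and 22 rose (median log2 fold change -0.04). They included Ppara, a nuclear receptor that drives fatty acid oxidation genes, which fell to 49.6% of control (log2FC -1.06, adjusted p = 0.00016 by limma), and Egr1, an immediate early gene, which rose from 174, 131, and 124 to 266, 262, and 281 (log2FC 0.93, adjusted p = 5.7e-05 by limma). Whether these lists differ from the set described above was not tested.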
